A study of Mus musculus with 41 samples.

Results

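The 10 genes described here in every library of the series were picked because their counts differed strongly between SAMP8 and SAMR1 mice at 2.5 months of age. Higher in SAMP8 were Gm6166 (ENSMUSG00000074280), Gm3608 (ENSMUSG00000067017), Rpl27-ps3 (ENSMUSG00000073640), Gm14326 (ENSMUSG00000078862), Vcp-rs (ENSMUSG00000083327) and Gm6356 (ENSMUSG00000091400). Higher in SAMR1 were Gm10524 (ENSMUSG00000097141), B230217O12Rik (ENSMUSG00000097785), Gm10138 (ENSMUSG00000100954) and AC153155.1 (ENSMUSG00000117713). They make up 10 of the 55359 genes counted, and all 10 were among the 14818 genes that passed the filter on low counts. They were chosen by their measured strain difference at 2.5 months, so that difference is given below as a description and without a test. SAMP8 (senescence-accelerated mouse prone 8) is an inbred strain that shows signs of aging early, and SAMR1 (senescence-accelerated mouse resistant 1) is the related strain used as its control. RNA-seq was run on cortex and hippocampus of male mice of both strains at 2.5, 6 and 9 months with no treatment named in the labels. For the libraries titled 2.5 months the file headers give a slightly higher age in weeks, and the titles were used. By the strain, age and mouse number in their labels the 41 libraries came from 28 mice, and 13 mice gave both regions. Some mouse numbers recurred at another age of the same strain, and each of these was counted as a separate mouse. SAMP8 cortex and hippocampus had 3 and 3 libraries at 2.5 months, 4 and 3 at 6 months and 4 and 4 at 9 months, and SAMR1 had 4 and 4, 3 and 4, and 3 and 2.

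A processed pseudogene is a copy of a messenger RNA that was written back into the genome, so it keeps the coding letters of its parent gene without the introns. Where copy and parent still share long runs of letters, a read from one can be counted at the other, and a strain whose sequence differs from the reference genome can shift reads between them. Inbred strains also differ in which copies of a gene family or which non-coding transcripts they carry, and such loci are commonly used to check the strain of a sample.

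Gm6166 is annotated as a processed pseudogene of Fabp5, which encodes a fatty acid binding protein. In GENCODE M21 on GRCm38 it is 1 exon on the plus strand, chr9:57483963-57484371, inside an intron of Gm18103 on the same strand. Its 409 bases matched the Fabp5 transcript (gene at chr3:10012548-10016607) at 98.289% identity with 5 mismatches. The 300 bases of Gm6166 where the 2 sequences differed most are shown with the matching coding bases of Fabp5, because they hold the letters by which reads of the copy and of the parent can be told apart. Capitals mark letters that differ or have no partner, and 6 aligned columns differ, of which 4 are mismatches and 2 are gaps.
Gm6166 bases 96 to 395: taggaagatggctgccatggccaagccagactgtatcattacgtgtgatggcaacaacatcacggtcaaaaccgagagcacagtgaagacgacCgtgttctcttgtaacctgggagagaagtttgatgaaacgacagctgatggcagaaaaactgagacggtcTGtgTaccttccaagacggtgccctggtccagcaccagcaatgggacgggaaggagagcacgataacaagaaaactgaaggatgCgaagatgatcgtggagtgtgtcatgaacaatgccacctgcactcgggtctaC
Fabp5 coding bases 96 to 393: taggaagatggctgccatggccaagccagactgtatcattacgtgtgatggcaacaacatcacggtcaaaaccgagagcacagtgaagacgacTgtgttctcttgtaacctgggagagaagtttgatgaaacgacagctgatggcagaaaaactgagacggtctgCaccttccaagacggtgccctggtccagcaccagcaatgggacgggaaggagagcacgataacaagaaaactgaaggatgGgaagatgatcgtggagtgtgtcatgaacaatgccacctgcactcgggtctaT
Over the whole coding part 7 of 407 columns differed, and the longest run of identical letters was 179 bases.

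Vcp-rs is annotated as a processed pseudogene of Vcp, the ATPase that pulls proteins out of membranes and complexes for degradation. It is 1 exon on the minus strand, chrX:104345829-104348234, and matched Vcp (gene at chr4:42979963-43000507) at 99.05% identity. The stretch with the most differing letters is shown for the same reason, with the same use of capitals, and 19 of its columns differ, namely 4 mismatches and 15 gap columns.
Vcp-rs bases 1459 to 1743: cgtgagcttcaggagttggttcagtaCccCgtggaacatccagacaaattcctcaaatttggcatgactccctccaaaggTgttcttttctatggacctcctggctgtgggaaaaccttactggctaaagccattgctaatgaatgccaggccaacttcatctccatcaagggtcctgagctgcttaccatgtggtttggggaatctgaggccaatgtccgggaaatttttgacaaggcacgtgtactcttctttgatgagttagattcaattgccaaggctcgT
Vcp coding bases 1459 to 1758: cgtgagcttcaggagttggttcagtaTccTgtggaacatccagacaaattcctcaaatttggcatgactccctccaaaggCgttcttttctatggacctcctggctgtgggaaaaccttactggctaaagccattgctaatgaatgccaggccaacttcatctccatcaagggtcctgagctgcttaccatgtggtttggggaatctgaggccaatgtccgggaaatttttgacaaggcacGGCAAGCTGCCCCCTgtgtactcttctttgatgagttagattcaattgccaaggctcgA
Most of that difference is a single missing stretch in Vcp-rs. Over the whole coding part 23 of 2418 columns differed, and the longest identical run was 794 bases.

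Library totals ran from 28861 to 37931897 assigned counts, with a median of 3082694, and 8 libraries held fewer than 1000000. Of all counts above 0, 73.9% were even numbers, which is more than single read counts would give, so intervals on shares were computed on halved counts and cover counting error only. For pairs of libraries within a group, the chi-square statistic divided by its degrees of freedom was 2.41 or more in all 52 pairs. It was computed on counts that were not halved, which makes it larger, so the lowest pairs may differ by little more than sampling noise. A list of hippocampal marker genes summed to group medians of 675.5 to 1465.0 CPM (counts divided by the library total and scaled to 1000000) in hippocampus and 243.0 to 366.5 CPM in cortex. By region-specific genes 2 libraries went against their region label, SAMR1 cortex 3 and SAMR1 hippocampus 2 at 6 months. The summed level of choroid plexus markers ran from 10.2 to 18100 CPM over the libraries, and its part in the results was not tested. The libraries labelled SAMP8 cortex 1, 2 and 4 at 9 months carried the 10 genes in the SAMR1 pattern. Those labelled SAMR1 cortex 1 to 3 at 9 months and SAMR1 cortex 2 at 6 months carried 8 to 9 of the 10 in the SAMP8 pattern. SAMP8 cortex 3 at 9 months held genes of both patterns. Calls of the 10 genes that use these libraries are given below with and without them where that could be fitted. Counts of ranges that do not overlap, and fits of other genes and of copy with parent, are given only with all labelled libraries.

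At 2.5 months Gm6166 had 28.4, 69.3 and 21.4 CPM in the 3 SAMP8 cortex libraries and 22.8, 44.3 and 38.1 CPM in the 3 SAMP8 hippocampus libraries. In SAMR1 it had 1.64, 0.541, 1.79 and 0 CPM in cortex and 1.74, 1.24, 1.4 and 1.14 CPM in hippocampus. The strains did not overlap in either region, with means of 37.4 ± 18 CPM in SAMP8 (SD, n = 6) and 1.19 ± 0.627 CPM in SAMR1 (SD, n = 8). Vcp-rs was the most abundant of the 10 genes in SAMP8, at 44.8, 69.3 and 63.6 CPM in cortex and 42.8, 36.4 and 56.2 CPM in hippocampus. In SAMR1 Vcp-rs had 9.11, 9.63, 8.41 and 16 CPM in cortex and 6.29, 9.06, 14 and 8.37 CPM in hippocampus. Vcp-rs was therefore lower in SAMR1 by a log2 difference of 2.36 (SE 0.42) but was not absent, and it was above 0 in each of the 41 libraries. Gm6356, a protein-coding gene of a large family at chr14:6965449-6973818, came nearest to presence in one strain alone. It had 10.4, 0 and 14.9 CPM in SAMP8 cortex and 11.7, 6.68 and 5.02 CPM in SAMP8 hippocampus, and in SAMR1 it was at 0 in 7 of 8 libraries with 0.108 CPM (2 counts) in cortex 2. The SAMP8 library at 0 was cortex 2, which held 28861 counts in all, so that 3 counts there would be worth more than any level measured for this gene.

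The other SAMP8-side genes differed less sharply. Gm3608, a pseudogene of the actin capping protein gene Capza1 at chr1:105455971-105458829, had a median of 9.13 CPM (0 to 13) in the 6 SAMP8 libraries and 0.818 CPM (0 to 4.94) in the 8 SAMR1 libraries. Gm14326, a protein-coding gene in the zinc finger gene cluster of chromosome 2 (chr2:177935993-177957297), had a median of 11 CPM (4.71 to 69.3) in SAMP8 and 2.06 CPM (0.234 to 3.99) in SAMR1. Rpl27-ps3, a processed pseudogene of the ribosomal protein gene Rpl27, ranged from 0 to 20.1 CPM in SAMP8 and from 0 to 3.04 CPM in SAMR1, so its ranges overlapped. The description of these genes as present almost only in one strain therefore did not hold for Gm3608, Rpl27-ps3, Gm14326 or Vcp-rs, whose SAMR1 means were 1.32, 1.38, 2.18 and 10.1 CPM. All 6 SAMP8-side genes matched another gene on the same strand over at least 90% of their length: 4 genes for Gm6166, 1 for Gm3608, 12 for Rpl27-ps3, 18 for Gm14326, 1 for Vcp-rs and 68 for Gm6356. The longest matches of Gm14326 and Gm6356 were Gm14391 (95.296% identity over 1807 bases) and Gm3542 (95.426% over 1771 bases). How reads shared between such copies were assigned is not given in the sources used here, and its part in their counts was not tested.

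None of the 4 SAMR1-side genes had such a match. AC153155.1, a long non-coding RNA at chr18:61484766-61489220, was the most abundant of them. It had 25.5, 45.4, 22.7 and 27.9 CPM in SAMR1 cortex and 21.2, 28.9, 21.7 and 44.1 CPM in SAMR1 hippocampus at 2.5 months, against 3.2, 0 and 0.649 CPM in SAMP8 cortex and 0.571, 0.647 and 2.01 CPM in SAMP8 hippocampus. The lowest SAMR1 library was thus above the highest SAMP8 library. Gm10138, an antisense transcript of Ivns1abp at chr1:151339604-151345231, was at 0 in all 3 SAMP8 cortex libraries and at 5.61, 2.54, 4.52 and 7.98 CPM in SAMR1 cortex, which is at least 10.8-fold higher in SAMR1 when the SAMP8 counts are set to 3 over the group. B230217O12Rik, a long non-coding RNA at chr19:57323193-57360775, ranged from 3.49 to 8.73 CPM in SAMR1 (median 5.38) and from 0 to 1.13 CPM in SAMP8 (median 0.393). Gm10524, a transcript not yet experimentally assigned to a class at chr18:82692284-82694176, ranged from 2.79 to 8.06 CPM in SAMR1 (median 4.99) and from 0 to 1.0 CPM in SAMP8 (median 0.609). Exons of Gm10524 overlap the zinc finger gene Zfp236 on the other strand, and those of B230217O12Rik overlap Fam160b1 on the other strand. The genes on the opposite strand did not mirror them in size, with log2 differences at 2.5 months of -0.87 for Zfp236, 0.10 for Fam160b1 and 0.02 for Ivns1abp.

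**Figure D1:**
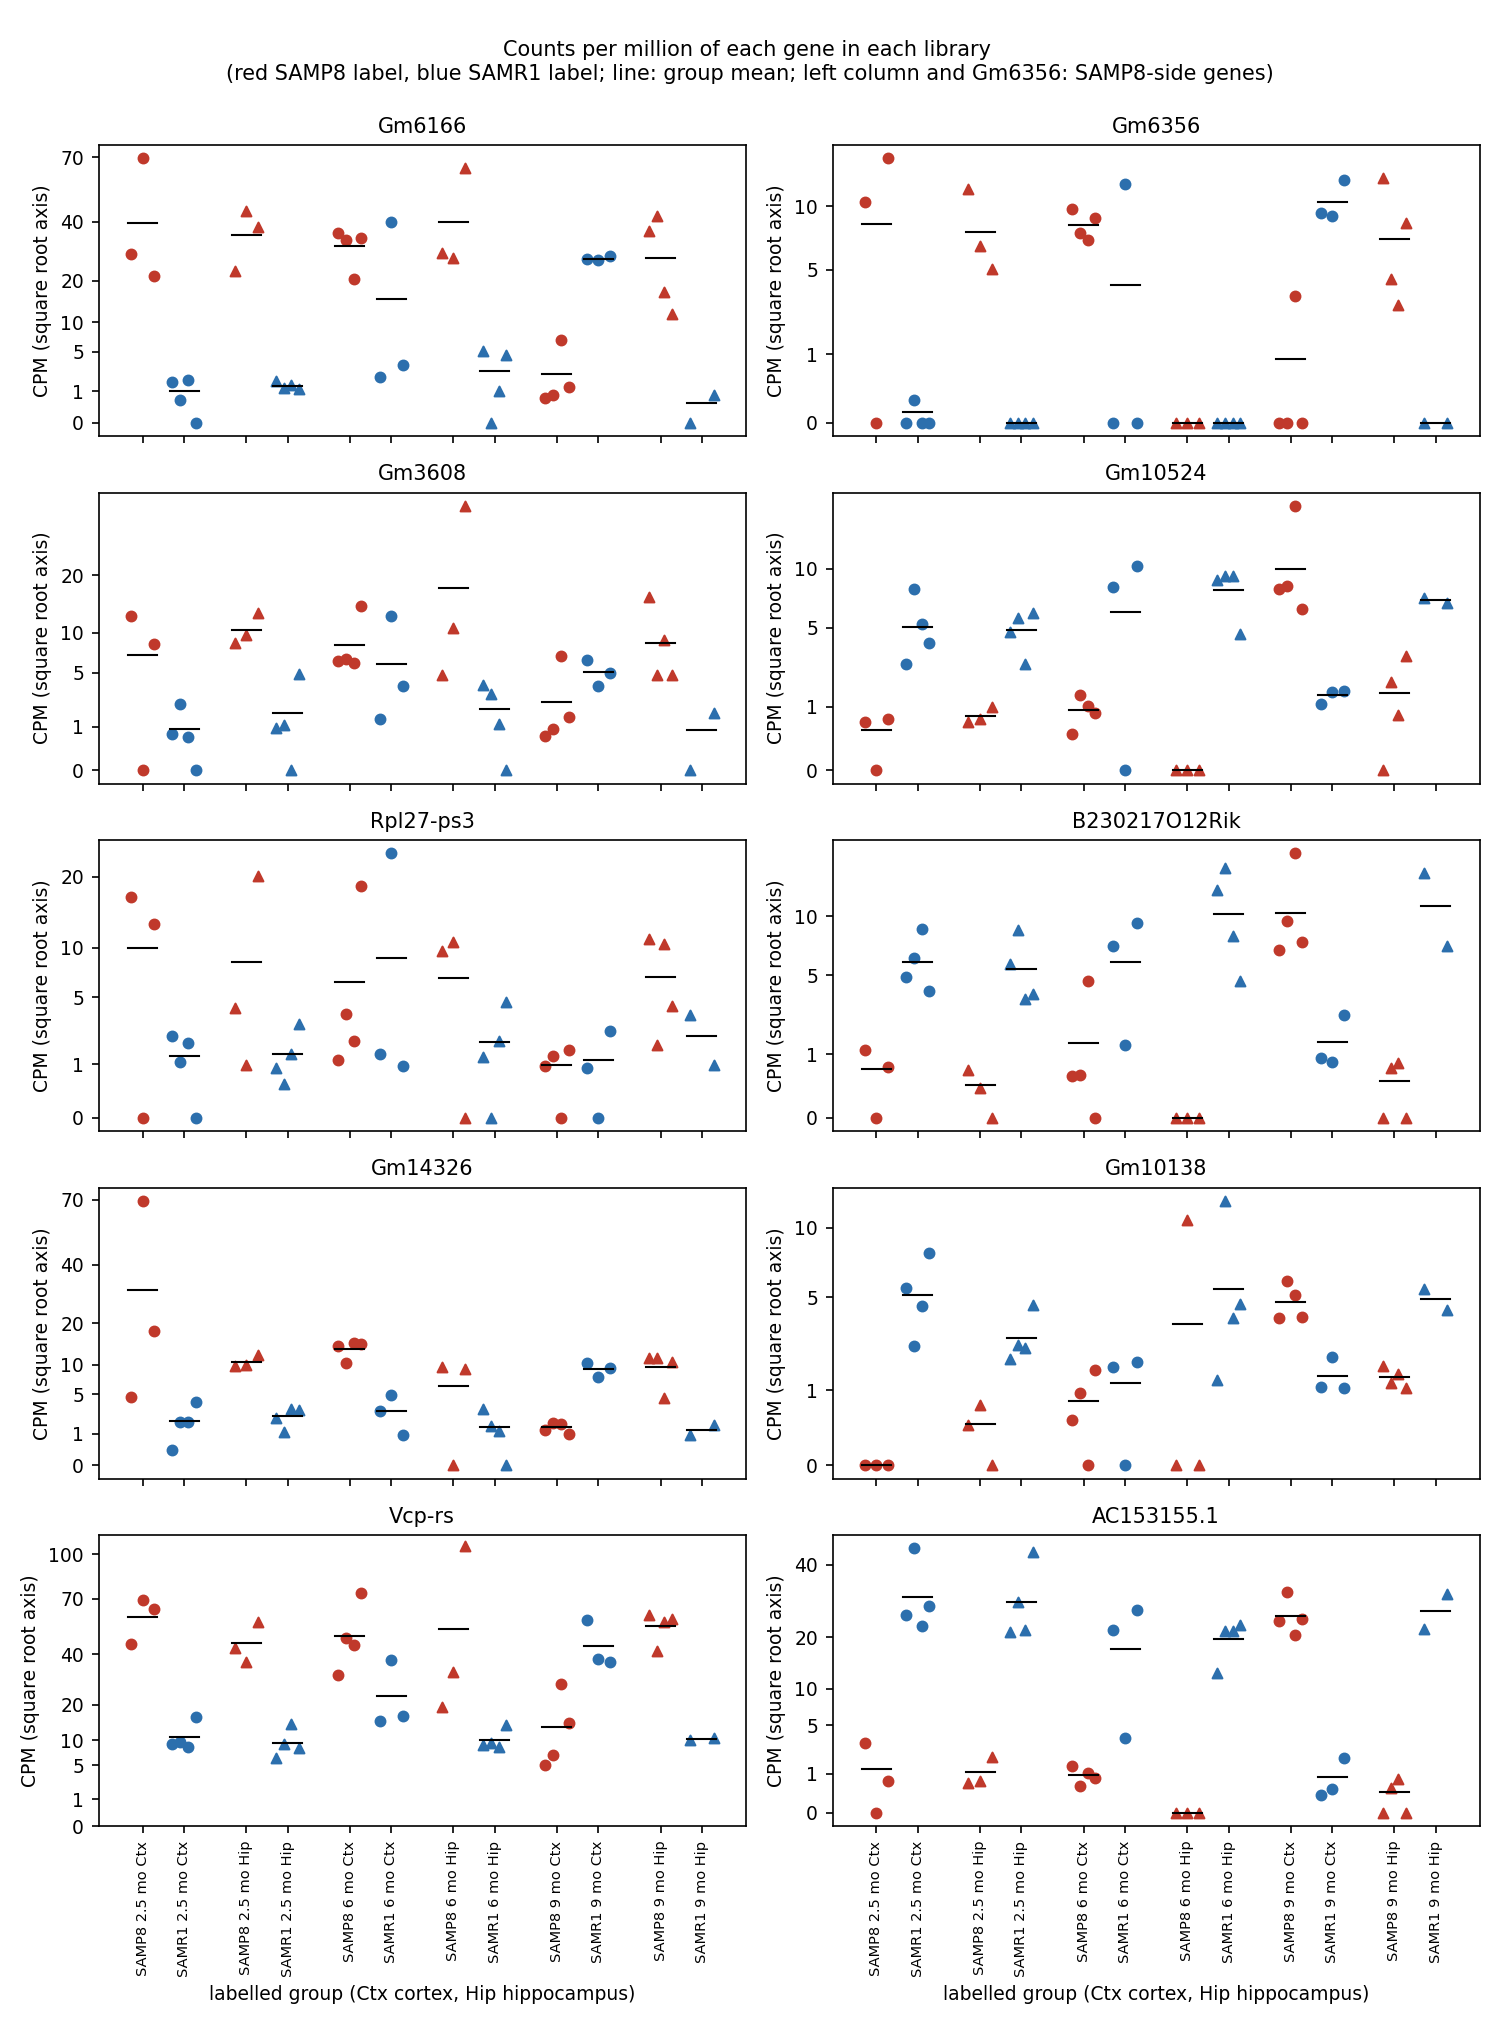
CPM of each of the 10 genes (y axis, square root scale) in each of the 41 libraries by labelled strain, age and region (x axis), with red points for SAMP8 labels, blue points for SAMR1 labels, circles for cortex, triangles for hippocampus and a line at each group mean. Gm6166 sits between 21.4 and 69.3 CPM in SAMP8 and at or under 1.79 CPM in SAMR1 at 2.5 months, and the order is turned in cortex at 9 months.

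By the call rule used throughout (edgeR quasi-likelihood test, Benjamini-Hochberg adjusted p no higher than 0.1, log2 fold change of 1 or more either way), 9 of the 10 genes passed at 2.5 months and Rpl27-ps3 did not, where 0.229% of all 14818 genes passed. This contrast chose the genes, so the count is only descriptive. The log2 fold changes of SAMP8 over SAMR1 were 8.06 for Gm6356, 4.52 for Gm6166, 2.91 for Gm3608, 2.88 for Rpl27-ps3, 2.54 for Gm14326 and 2.36 for Vcp-rs, and -4.44 for AC153155.1, -3.87 for Gm10138, -3.39 for B230217O12Rik and -2.90 for Gm10524. The value for Gm6356 depends on the prior count of the fit, since SAMR1 was nearly at 0, and in hippocampus alone its SAMP8 level was at least 96.8-fold higher. No numeric limit was part of the choice, and Vcp-rs and Gm14326 had the smallest differences. Regions were also compared within each strain at this age. No gene of the 10 was called between hippocampus and cortex in SAMP8, where 0.614% of all genes were called, nor in SAMR1, where 1.43% were. In both strains 0 of the 10 had an unadjusted p under 0.05 in edgeR, and DESeq2 and limma voom called 0. With background shares this low, 0 calls in 10 genes does not set them apart from other genes. Nor does it show equal levels in the regions, since the groups were small and genes near 0 in a strain can hardly differ there. The largest value was 4.46 (SE 2.25) for Gm10138 in SAMP8, where its cortex libraries were at 0.

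Because the 6 and the 4 genes moved in opposite directions, the share of a library's counts at the 10 genes that fell on the 6 SAMP8-side genes summarizes each library in a value that is not scaled by its depth. At 2.5 months this share was 96, 100 and 98.6% in SAMP8 cortex and 98.0, 98.0 and 98.0% in SAMP8 hippocampus. It was 26.5, 19.9, 26.1 and 31.2% in SAMR1 cortex and 26.3, 21.9, 39.6 and 26.0% in SAMR1 hippocampus. These values were fixed by the choice of the genes, except that the share of 100% in SAMP8 cortex 2 rested on 6 counts (95% Clopper-Pearson interval on halved counts, 29.2 to 100%). Over all 41 libraries the share fell into a pair of ranges with none between. In 21 libraries it was 88.2 to 100% (median 97.1%), and in 20 libraries it was 16.6 to 43.5% (median 26.2%). The level of the lower range rested on AC153155.1, without which those 20 libraries had 27.3 to 69.5% and the other 21 had 88.2 to 100%.

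At 6 and 9 months, which the choice of genes did not use, 8 of 27 libraries lay on the side opposite to their strain label, divided at 50%, and 19 lay on their own side. Without AC153155.1, 13 of the 41 libraries lay opposite at the same limit, since libraries of the lower range then lie on both sides of it. The libraries labelled SAMP8 cortex 1, 2, 3 and 4 at 9 months had shares of 16.6, 17.2, 43.5 and 31.7%. The libraries labelled SAMR1 cortex 1, 2 and 3 at 9 months had shares of 97.1, 94.7 and 92.8%. At 9 months all 7 cortex libraries were thus on the opposite side, while the 4 SAMP8 hippocampus libraries had 98.8, 96.3, 96.4 and 95.8% and the 2 SAMR1 hippocampus libraries had 22.9 and 24.0%. At 6 months the library labelled SAMR1 cortex 2 had 96.4%, beside 36.7 and 34.4% in SAMR1 cortex 1 and 3. The other 6-month groups lay on their own side, at 97.5, 97.1, 93.5 and 98.1% in SAMP8 cortex, 100, 88.2 and 100% in SAMP8 hippocampus, and 38.5, 19.1, 24.6 and 38.5% in SAMR1 hippocampus.

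**Figure D2:**
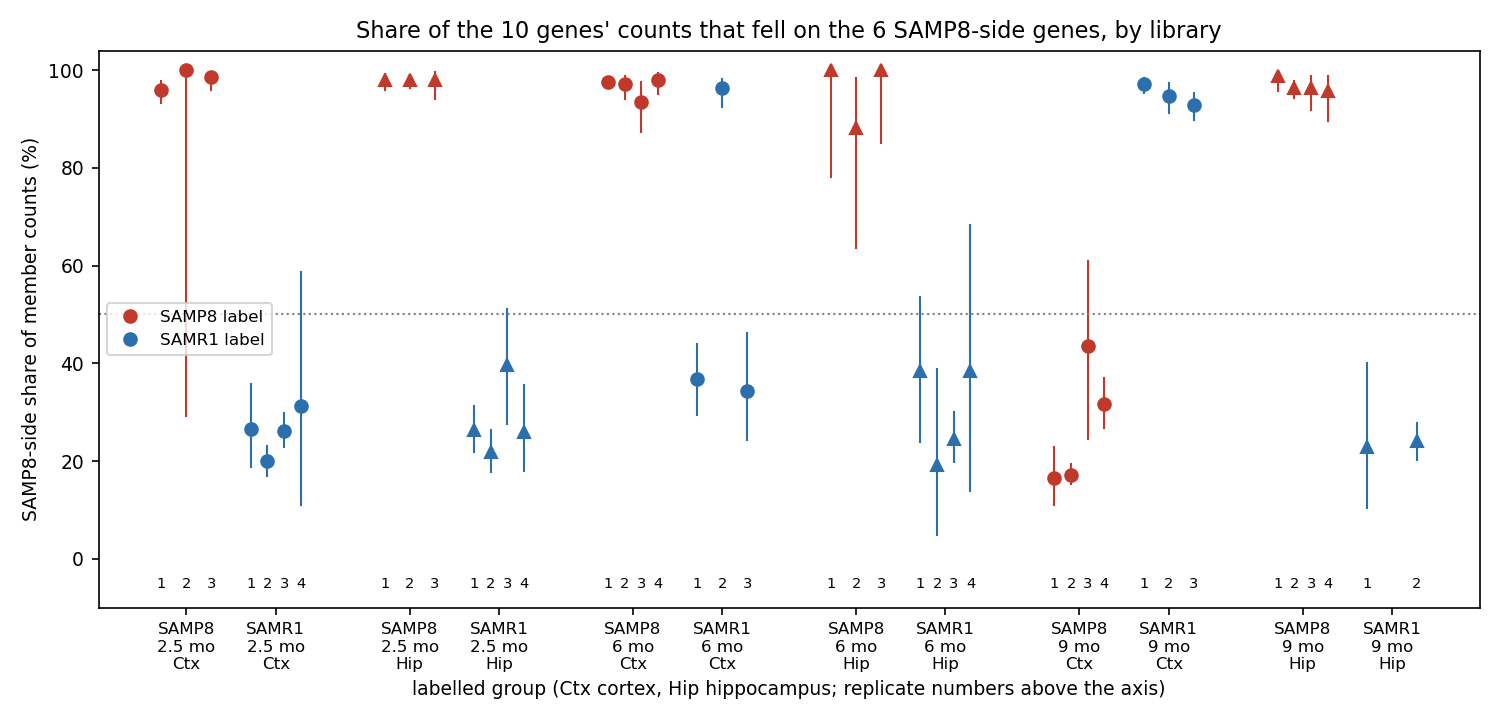
SAMP8-side share of the counts at the 10 genes (y axis, %) in each library by labelled group and replicate number (x axis), with red for SAMP8 labels, blue for SAMR1 labels, circles for cortex, triangles for hippocampus, bars for the 95% Clopper-Pearson interval on halved counts and a dotted line at 50%. The 4 red circles at 9 months lie at 16.6 to 43.5% and the 3 blue circles at 9 months lie at 92.8 to 97.1%.

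The libraries on the opposite side were not all shallow. SAMP8 cortex 2 at 9 months was the deepest of the series with 37931897 counts, of which 438 fell on the SAMP8-side genes and 2106 on the SAMR1-side genes (15.2 to 19.4%). SAMR1 cortex 1 at 9 months had 1014 and 30 such counts (95.3 to 98.4%). SAMR1 cortex 2 at 6 months had 397 and 15 (92.5 to 98.3%). The library labelled SAMP8 cortex 3 at 9 months was the exception, with 583076 counts in all and 27 and 35 at the 10 genes (24.5 to 60.9%). It held both kinds of gene, with Gm6166 at 6.86, Gm3608 at 6.86, Vcp-rs at 27.4 and Gm6356 at 3.43 CPM beside Gm10524 at 17.2, B230217O12Rik at 17.2 and AC153155.1 at 20.6 CPM. Counted gene by gene against the midpoint of the 2.5-month groups, 4 of the 10 genes were on the SAMP8 side in that library and 0 in SAMP8 cortex 1, 2 and 4 at 9 months, against 8 to 9 in the 4 opposite SAMR1 libraries.

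The regions of 1 mouse could be compared for the 13 mice with both. In 9 mice cortex and hippocampus lay on the same side, and in 4 they lay on opposite sides. Of the 9 mice, 4 were of 2.5 months, whose sides were fixed by the choice of the genes. At 6 months 5 mice had both regions on the same side and 1 had them on opposite sides. At 9 months all 3 mice with both regions, each SAMP8, had them on opposite sides. SAMP8 mice 28, 33 and 34 at 9 months had 16.6, 43.5 and 31.7% in cortex and 96.3, 96.4 and 95.8% in hippocampus. SAMR1 mouse 2 at 6 months had 96.4% in cortex and 24.6% in hippocampus. In each of these 4 mice it was the cortex library that lay opposite to the label.

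Other genes were read in the same libraries to see whether the pattern was limited to the 10. In a fit of the 14 libraries of 2.5 months alone, 21 genes passed the call rule between strains after removing the 10 genes, their near copies and the genes within 500 kb of them (12 higher in SAMP8 and 9 higher in SAMR1), and each library was given a position between the median of SAMR1 (0) and of SAMP8 (1) at that age. This check was chosen after the data were seen. It placed 7 libraries past the midpoint of 0.5 on the side opposite to their label. They were SAMP8 cortex 1, 2 and 4 at 9 months (0.267, 0.257 and 0.235), SAMR1 cortex 1, 2 and 3 at 9 months (0.928, 0.682 and 0.697) and SAMR1 cortex 2 at 6 months (0.941). These are 7 of the 8 libraries that lay opposite by the 10 genes, and SAMP8 cortex 3 at 9 months, the eighth, was at 0.628. The check planned first used 12 genes with a log2 fold change of 2 or more either way in the same fit (6 each way). Only 3 of the 12 had an adjusted p no higher than 0.1, and these 3 were also among the 21, so the checks share genes. The 12 genes placed 9 libraries opposite to their label. These included SAMP8 cortex 3 at 9 months (0.262), did not include SAMR1 cortex 2 at 9 months (0.35), and also held SAMP8 hippocampus 1 at 6 months (0.317) and SAMP8 hippocampus 4 at 9 months (0.37), which the 10 genes placed with SAMP8 at shares of 100 and 95.8%. Whether labels, samples or tissue were exchanged was not tested.

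**Figure D3:**
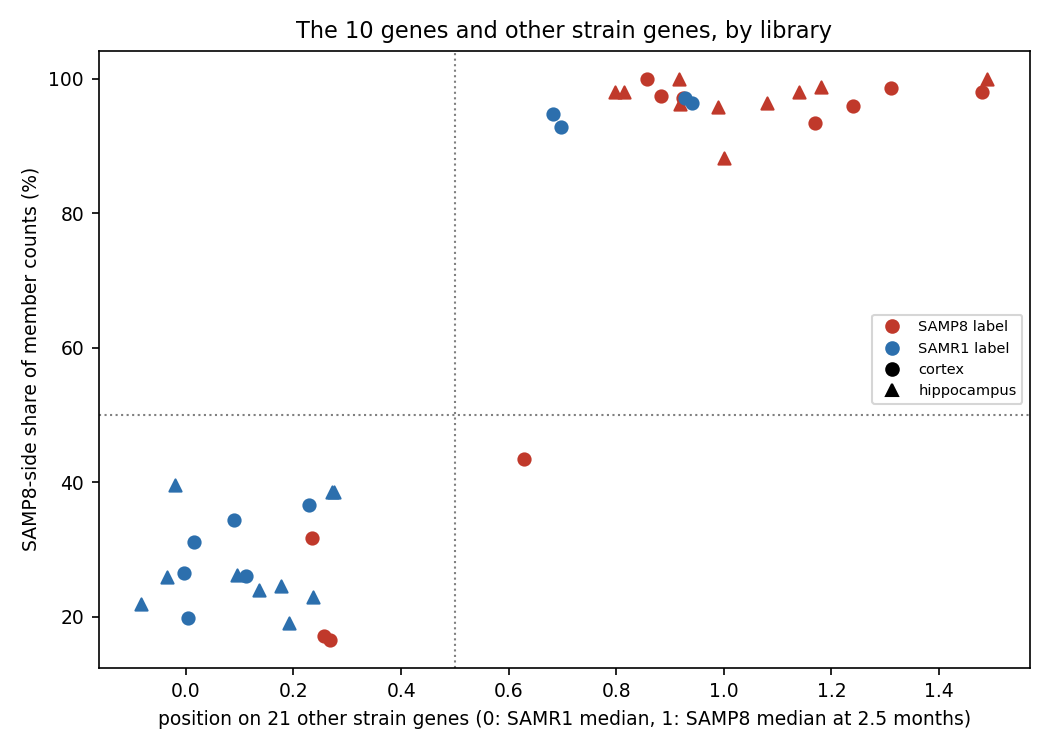
SAMP8-side share of the counts at the 10 genes (y axis, %) against the position of the library on 21 other strain genes (x axis, 0 for the SAMR1 median and 1 for the SAMP8 median at 2.5 months), with 1 point per library, red for SAMP8 labels, blue for SAMR1 labels, circles for cortex and triangles for hippocampus. Of the 4 blue circles at 92.8 to 97.1%, those at positions 0.928 and 0.941 lie among the red points of the upper range. Those at 0.682 and 0.697 lie to the left of these red points, the lowest of which is at 0.797. The 3 red circles at 16.6 to 31.7% lie among the blue points, and the red circle at 43.5% stands apart.

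With the labels as given, the strain difference at 6 months kept the direction of 2.5 months in all 10 genes and passed the call rule in 3, where 0.256% of all genes passed. Rpl27-ps3 was the weakest at 0.22 (SE 0.79), and its sign turned to -0.67 without SAMP8 cortex 4. AC153155.1 was lower in SAMP8 by a log2 fold change of -4.26 (SE 1.01, edgeR adjusted p = 0.0549). Gm10524 was lower at -3.41 (SE 0.76, edgeR adjusted p = 0.0417), and Gm14326 was higher at 2.27 (SE 0.60, edgeR adjusted p = 0.0891). B230217O12Rik missed the threshold narrowly at -3.35 (SE 0.91, edgeR adjusted p = 0.1005). Gm6166 gave 1.86 (SE 0.75, edgeR adjusted p = 0.272), since the library labelled SAMR1 cortex 2 had 40 CPM against 0 to 5.1 CPM in the other 6 SAMR1 libraries. The SAMP8 libraries of that age lay between 20.4 and 64.4 CPM for Gm6166. Without that library 7 of the 10 genes were called, and without all 7 libraries that the 21 other genes placed opposite to their label 8 were called. The share of all genes called in these fits is not given here, so the higher counts are not read as particular to the 10. In the fit without the 7 libraries Gm6166 rose by 3.89 (SE 0.45), Gm6356 by 7.84 (SE 1.16), Gm14326 by 2.60 (SE 0.55), Gm3608 by 2.27 (SE 0.61) and Vcp-rs by 1.96 (SE 0.28) on the log2 scale. The value for Gm6356 depends on the prior count, since the SAMR1 libraries of 6 months kept in that fit were at 0. AC153155.1, B230217O12Rik and Gm10524 had -4.75, -3.95 and -3.92, while Rpl27-ps3 at 1.99 (edgeR adjusted p = 0.316) and Gm10138 at -1.47 (edgeR adjusted p = 0.485) did not pass. Libraries were left out because they lay opposite to the pattern of 2.5 months. Larger differences in the 2.5-month direction are therefore partly built into these fits. The count of 3 also moved with single libraries that lay on their own side: it was 0 without SAMP8 cortex 1 or without SAMP8 cortex 4, 1 without SAMR1 hippocampus 2 or 4, and 5 without SAMP8 cortex 2.

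Within the regions at 6 months, the hippocampus held no library opposite to its strain label by the 10 genes. SAMR1 hippocampus 2, and SAMR1 cortex 3 in the cortex comparison, went against their region label and were kept here. Gm6166 was higher in SAMP8 hippocampus, with 28.7, 26.9 and 64.4 CPM against 5.1, 0, 1.01 and 4.6 CPM in SAMR1 (log2 fold change 4.07, SE 0.88, edgeR adjusted p = 0.0320). Vcp-rs was higher too, with 19.1, 32.2 and 106.0 CPM against 8.93, 9.27, 8.57 and 13.8 CPM (2.21, SE 0.50, edgeR adjusted p = 0.0379). AC153155.1 was at 0 in the 3 SAMP8 libraries and at 12.8, 21.6, 21.4 and 23 CPM in SAMR1, at least 6.85-fold higher in SAMR1 (edgeR adjusted p = 0.0413). These were the 3 genes called, where 1.63% of all genes were called, and 5 were called without SAMR1 cortex 2, which shares the fit. None of the 10 was called with limma voom and mouse as a block, nor with only the libraries of 6 months, where 4 of the 10 were tested. Gm10524 and B230217O12Rik were also at 0 in the 3 SAMP8 libraries, and their SAMR1 levels were at least 3.05-fold and 3.02-fold higher. The bounds are low because the 3 SAMP8 libraries held 217457 to 418346 counts. Gm6356 was at 0 in all 7 hippocampus libraries of this age, on both sides, whereas 4 of 4 SAMP8 cortex libraries had 7.12 to 9.71 CPM. In 6-month cortex only AC153155.1 was called (-3.88, SE 0.56, edgeR adjusted p = 0.000411), and it was the single call among all genes (0.00675%). The count was 4 without SAMR1 cortex 2 and 2 without SAMP8 cortex 2 or 3. Ranges of the labelled strains did not overlap for 2 of the 10 genes in 6-month cortex (7.47% of all genes) and for 6 of the 10 in hippocampus (8.70% of all genes), each in the direction of 2.5 months.

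At 9 months, with both regions in 1 comparison, 0 of the 10 genes were called (0% of all genes) and none had an unadjusted p under 0.05 in edgeR, and DESeq2 and limma voom also called 0. The values ranged from -0.23 for Gm6166 to 1.51 for Rpl27-ps3 on the log2 scale. This balance joined opposite differences in the regions. In cortex Gm6166 had 0.619, 0.791, 6.86 and 1.25 CPM in the libraries labelled SAMP8 and 26.5, 26.2 and 27.5 CPM in those labelled SAMR1 (log2 fold change -4.53, SE 0.71, edgeR adjusted p = 0.00056). In hippocampus it had 36.5, 42.3, 17.1 and 11.8 CPM in SAMP8 and 0 and 0.791 CPM in SAMR1 (5.27, SE 1.00, edgeR adjusted p = 0.0281). AC153155.1 went the other way, with 24.0, 31.6, 20.6 and 24.5 CPM in cortex labelled SAMP8 and 0.219, 0.379 and 1.97 CPM in cortex labelled SAMR1 (4.88, SE 0.61, edgeR adjusted p = 1.325e-05). In hippocampus AC153155.1 had 0, 0.402, 0.743 and 0 CPM in SAMP8 and 22 and 31.1 CPM in SAMR1 (-6.18, SE 0.72, edgeR adjusted p = 2.4e-06). Both genes thus had in 9-month cortex the order opposite to that of 2.5 months and in hippocampus the same order.

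Not all of the 10 followed this split, since Rpl27-ps3 was at 0.05 in cortex and 2.00 in hippocampus on the log2 scale and was called in neither, and Gm3608 was at -1.82 and 2.62 and was called in neither. In 9-month cortex 5 genes were called, all against their 2.5-month direction, where 0.108% of all genes were called. Beside Gm6166 and AC153155.1 these were Vcp-rs (-1.95, SE 0.39, edgeR adjusted p = 0.0154), Gm14326 (-2.68, SE 0.56, edgeR adjusted p = 0.0252) and Gm6356 (-7.22, SE 1.36, edgeR adjusted p = 0.0142). Vcp-rs had 5.11, 6.78, 27.4 and 14.3 CPM under the SAMP8 label and 57.2, 37.7 and 36.4 CPM under the SAMR1 label. Gm6356 was at 0 in SAMP8 cortex 1, 2 and 4 and at 9.41, 9.1 and 12.6 CPM in SAMR1 cortex, so its fitted fold depends on the prior count. The count of 5 was 2 without SAMP8 cortex 1 or 2 and 3 without SAMP8 cortex 4 or SAMR1 cortex 1. Ranges did not overlap for 8 of the 10 genes in 9-month cortex (10.9% of all genes), namely 4 SAMP8-labelled above and 4 SAMR1-labelled above, each against the direction of 2.5 months. The 2 genes whose ranges overlapped were Gm3608 and Rpl27-ps3, and Rpl27-ps3 was low under both labels in cortex, at 0 to 1.61 and 0 to 2.62 CPM.

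In 9-month hippocampus 4 genes were called, each in its 2.5-month direction, where 0.0945% of all genes were called. Vcp-rs had 60.2, 41.3, 56.5 and 58.3 CPM in SAMP8 and 10.1 and 10.5 CPM in SAMR1 (2.38, SE 0.49, edgeR adjusted p = 0.0301). B230217O12Rik had 0, 0.603, 0.743 and 0 CPM in SAMP8 and 14.7 and 7.3 CPM in SAMR1 (-4.50, SE 0.87, edgeR adjusted p = 0.0281). Gm6356 was at 12.8, 4.42, 2.97 and 8.55 CPM in SAMP8 and at 0 in both SAMR1 libraries, at least 33.8-fold higher, and was not called. With only 2 SAMR1 libraries the count rested on each of them, and it was 1 without SAMR1 hippocampus 1 and 2 without SAMR1 hippocampus 2. Ranges did not overlap for 9 of the 10 genes (18% of all genes), 5 with SAMP8 above and 4 with SAMR1 above.

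**Figure D4:**
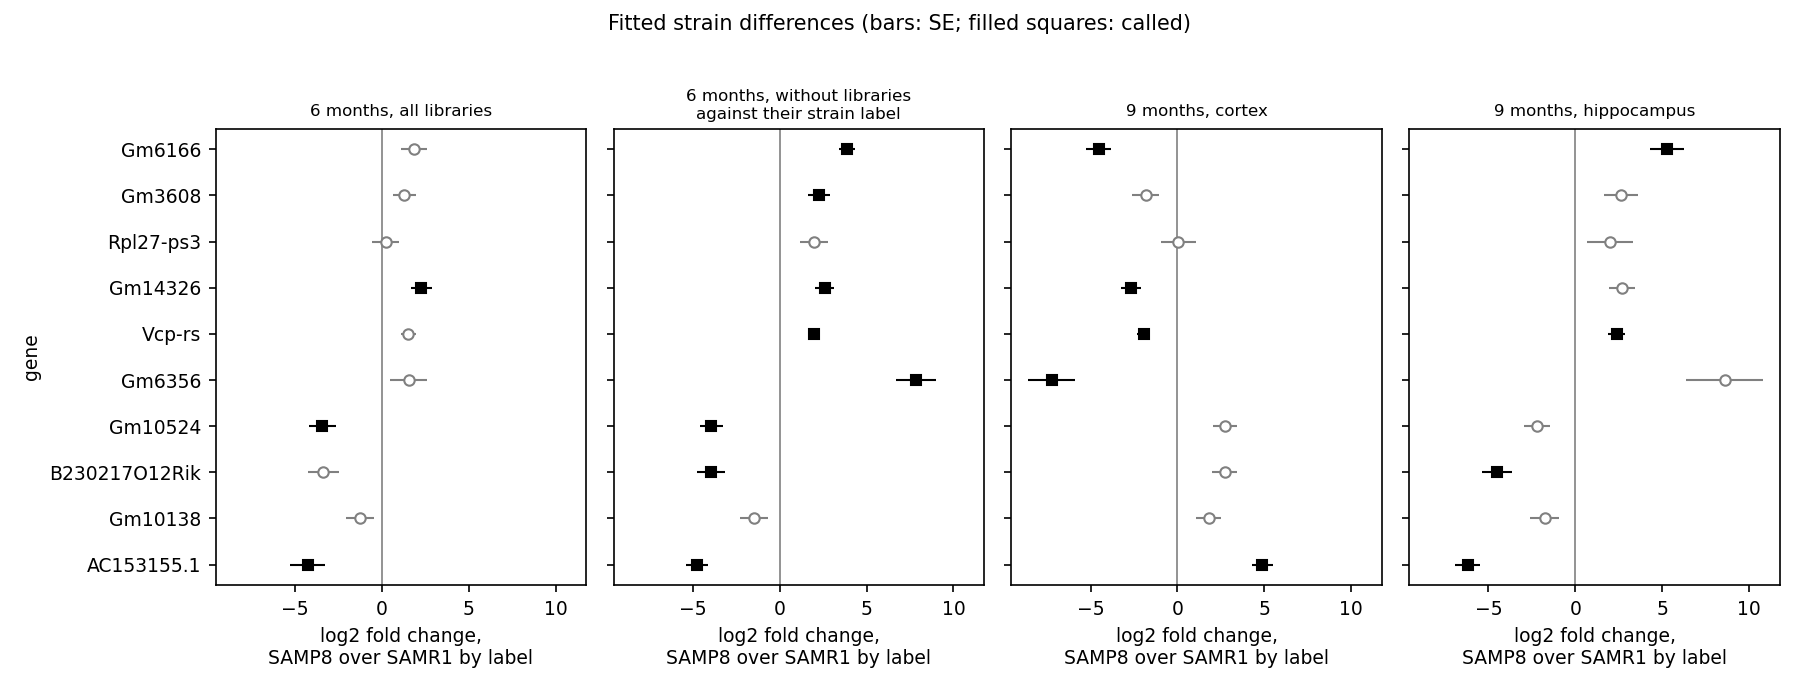
Fitted log2 fold change of SAMP8 over SAMR1 by label (x axis) for each of the 10 genes (y axis) at 6 months, at 6 months without the 7 libraries that 21 other genes placed opposite to their strain label, at 9 months in cortex and at 9 months in hippocampus, with bars for the SE and filled squares for calls. Gm6166 lies at 1.86, 3.89, -4.53 and 5.27 in the 4 panels and AC153155.1 at -4.26, -4.75, 4.88 and -6.18.

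The difference between regions was tested directly as the strain difference in cortex minus that in hippocampus. At 9 months 7 of the 10 genes were called, where 0.263% of all genes were called. The log2 values were -9.80 for Gm6166 (SE 1.24, edgeR adjusted p = 7.201e-06), -5.36 for Gm14326 (SE 0.93), -4.34 for Vcp-rs (SE 0.63), 4.96 for Gm10524 (SE 1.01), 7.22 for B230217O12Rik (SE 1.13) and 11.06 for AC153155.1 (SE 0.94, edgeR adjusted p = 3.535e-10). Gm6356 was the seventh, and its fitted value of -15.80 depends on the prior count because both groups it compares hold libraries at 0. The count was 4 without SAMR1 hippocampus 2 at 9 months. At 6 months 0 of the 10 were called in edgeR, where 0.0337% of all genes were called, with 1 gene at an unadjusted p under 0.05 and 0 calls by DESeq2 and by limma voom. The 9-month comparison in cortex and the region term could not be repeated without the libraries lying opposite to their labels, since those are all or nearly all of the cortex libraries of that age. With both regions together at 9 months, the fit without the 7 libraries placed opposite by the 21 genes called 4 of the 10, Gm6166 (5.11, SE 0.77), Vcp-rs (2.23, SE 0.42), Gm6356 and AC153155.1 (-4.29, SE 0.71). That fit kept SAMP8 cortex 3 as the only cortex library of 9 months.

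The counts of the pseudogenes were next set beside those of their parents, in the 33 libraries of at least 1000000 counts. In the 17 libraries on the SAMP8 side by the share, Gm6166 took 27.8 to 61.5% of the counts at Gm6166 and Fabp5 together (median 39.2%). In the 16 libraries on the SAMR1 side it took 0 to 6.35% (median 1.43%). Fabp5 itself had a median of 44.8 CPM on the SAMP8 side and 72.0 CPM on the SAMR1 side, while the sum of both genes had medians of 73.3 and 73.2 CPM. Vcp-rs took 23.7 to 44.4% of the counts at Vcp-rs and Vcp on the SAMP8 side (median 30.9%) and 3.02 to 8.91% on the SAMR1 side (median 4.98%). Vcp had medians of 109 and 164 CPM and the sum 154 and 176 CPM. For both pairs the parent was lower where the copy was higher, and the sums were closer than either gene alone. Since the sides were set with these copies' own counts, the copies' shares are descriptions, and in bulk tissue fewer cells of a type and less RNA per cell cannot be told apart for the parents.

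**Figure D5:**
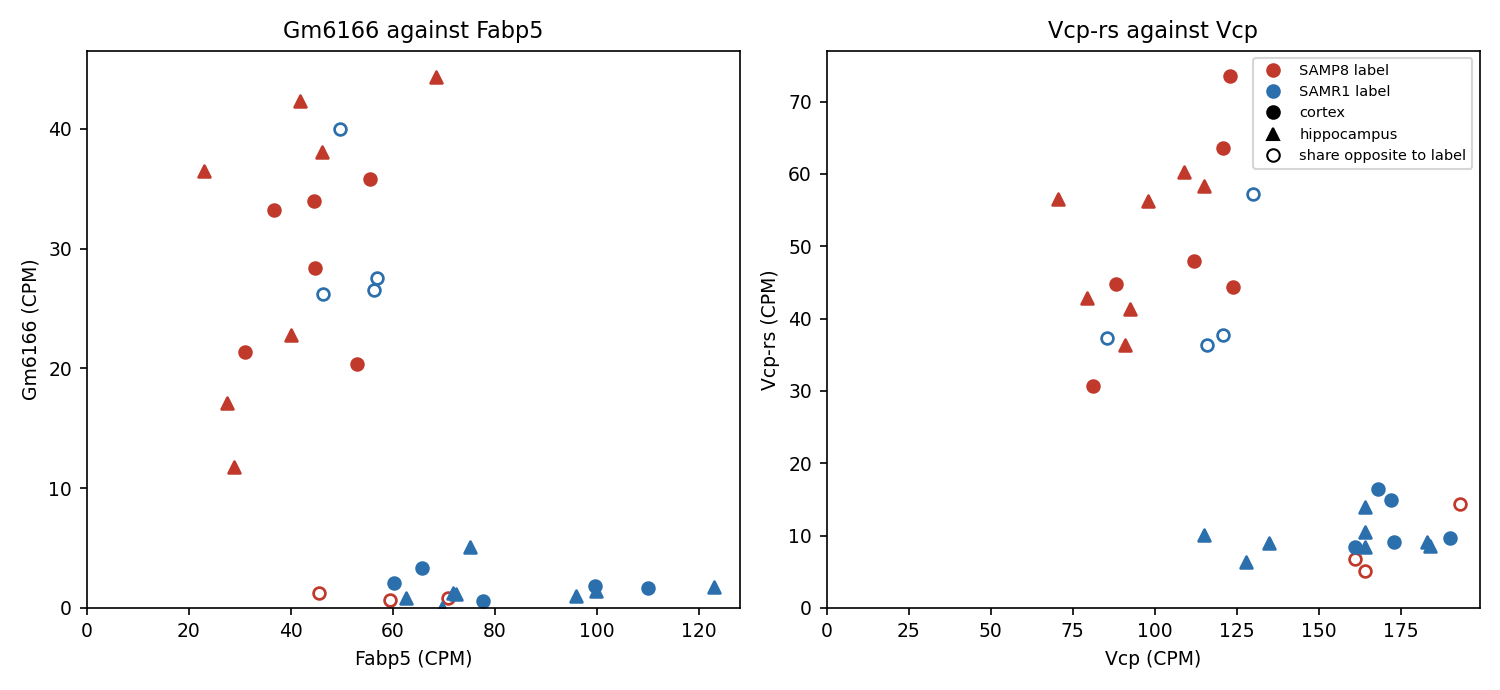
CPM of Gm6166 against Fabp5 and of Vcp-rs against Vcp (y axes copy, x axes parent) in the 33 libraries of at least 1000000 counts, with red for SAMP8 labels, blue for SAMR1 labels, circles for cortex, triangles for hippocampus and open symbols for libraries whose share lay opposite to the label. Open blue circles lie with the SAMP8 points and open red circles with the SAMR1 points, and Vcp spans 70.6 to 130 CPM on the SAMP8 side and 115 to 193 CPM on the SAMR1 side.

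The other pairs were less even. Gm3608 took a median of 39.4% of the counts at Gm3608 and Capza1 on the SAMP8 side and 5.21% on the SAMR1 side, with Capza1 at medians of 13 and 23 CPM and the sum at 21.6 and 23.6 CPM. Rpl27-ps3 took a median of 12.7% and 5.04% with Rpl27, and here the parent was not lower on the SAMP8 side, at medians of 30.7 and 25.2 CPM. Rpl27-ps3 matched Rpl27 at 100% over its 411 bases, so no letter in that match separates their reads. When each copy and its parent were counted as 1 gene, the log2 strain difference at 2.5 months, given without a test, went from -1.0 to -0.28 for Fabp5, from -0.86 to -0.35 for Vcp, from -0.68 to 0.02 for Capza1 and from 0.57 to 0.84 for Rpl27. In 9-month hippocampus it went from -1.08 (edgeR adjusted p = 0.382) to -0.17 for Fabp5 and from -0.53 to 0.01 for Vcp. How reads shared by copy and parent were assigned was not tested.

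The zinc finger cluster around Gm14326 was listed with 52 genes, of which 46 were in the data and 14 passed the filter on low counts. At 6 months 0 of the 14 were called in either direction in edgeR, with a median log2 fold change of 1.02 against -0.04 over all genes tested, and 10 were above 0. The cluster genes with the smallest p were Gm14305 (1.22, SE 0.40, edgeR adjusted p = 0.176), Gm14418 (3.03, SE 1.07, edgeR adjusted p = 0.199) and Zfp931 (1.02, SE 0.37, edgeR adjusted p = 0.213). Its median was -0.75 in 9-month cortex and 1.10 in 9-month hippocampus, where 0 of the 14 were called in each. In other comparisons the calls in the cluster were Gm14418 in 6-month hippocampus (edgeR adjusted p = 0.0766), and Gm14410 (3.40, SE 0.70) and Gm14403 (2.62, SE 0.62) for strain by region at 9 months, all 3 named after their values were seen. For strain by region at 9 months the cluster median was -1.95, and both called genes lay on the other side of 0. At 2.5 months, the age that chose Gm14326, 3 of the 14 were higher in SAMP8 by the call rule and the median was 0.97. Of 240 genes listed within 500 kb of the 10, 230 were in the data and 76 were tested. None of the 76 was called at 6 months in edgeR, with a median of 0.03, while 2 were called at 2.5 months and 1 for strain by region at 9 months, where the median was 0.09. Those called were Gm14322 and Zfp931, and Gm14403, which also belong to the zinc finger cluster. The 105 near copies of Gm6356, the 4 further copies of Gm6166 and the 11 further copies of Rpl27-ps3 did not pass the filter.

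The genes whose levels followed the 10 most closely over the 41 libraries were ranked by Spearman correlation with the difference of the mean log2 levels of the 6 and the 4 genes, as a description only. The 5 with the SAMP8-side genes were Pcnp (0.753), Ggps1 (0.751), Ero1lb (0.75), Ranbp9 (0.745) and Invs (0.744). The 5 with the SAMR1-side genes were P3h2 (-0.784), Plekha5 (-0.746), Tesk1 (-0.746), Vcp (-0.745), which is the parent of Vcp-rs, and Trmt61b (-0.726). The 41 points share mice, depth and the labels discussed above.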

How the data were processed

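RNA was sequenced from cortex and hippocampus of male SAMP8 and SAMR1 mice, and each library was assigned to strain, age and region by its title. The deposited file holds raw read counts per gene, and per the file headers they were made from alignments deduplicated by molecular identifiers. The authors trimmed, aligned and counted the reads (FastQC, cutadapt, STAR and featureCounts in the submitters' processing notes, versions not given in the sources used here), with stranded counting per the methods. How reads that match several genes were counted is not given in the sources used here, which bears on the pseudogenes. Replicates are separate titles, 13 mice gave a library of each region, and p-values treat the libraries as independent.

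Here, counts were fitted with edgeR 4.0.16 (R 4.3.3): genes passing filterByExpr over the 6 strain and age groups, TMM normalization, quasi-likelihood F tests with region as a covariate or with 12 groups of strain, age and region, and Benjamini-Hochberg adjustment over 14818 genes. Calls needed an adjusted p no higher than 0.1 and a log2 fold change of 1 or more either way. CPM is the count divided by the library total, and the floor for groups at 0 was 3 counts. Genes and positions were matched by identifier to GENCODE M21 on GRCm38 (94.1% of 55359 rows), an earlier release than the GENCODE M29 named in the methods. The methods pair M29 with GRCm38, which could not be checked, so positions are those of M21 only. Near copies were blastn matches of at least 90% identity over at least 200 bases. The fits were tested on simulated counts. The genes, lists and tests were chosen with earlier results of these data known. Named beside the 10 genes were their nearest copies, genes called within 500 kb at 6 months, up to 3 genes of the zinc finger cluster by p and the 5 genes most correlated each way. The alternatives were DESeq2 1.42.0, RLE factors, other filters, limma 3.58.1 voom with mouse as a block, the replicate number as a block, other thresholds, and fits without shallow libraries, without libraries opposite to their label, without other ages and without each library.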

Additional observations from a re-analysis of the deposited data

Results flagged for a closer look

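The strain difference in cortex minus that in hippocampus at 9 months passed the edgeR interaction test in 7 of the 10 genes, with log2 values of -9.80 for Gm6166, -5.36 for Gm14326, -4.34 for Vcp-rs, -15.80 for Gm6356 (a value that depends on the prior count), 4.96 for Gm10524, 7.22 for B230217O12Rik and 11.06 for AC153155.1. In all 7 the difference of the labelled strains in cortex ran against that in hippocampus.

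One library stood apart from the rest of its group in 14 of 66 groups of 4 libraries, by the ratio of its gap to the range. The limit is set to flag about 1 in 20 groups of normal values with equal spread. Low counts at unequal depth are not such values, and a lone library above 0 is flagged by construction, so 14 cannot be read as an excess over chance. The library labelled SAMP8 cortex 3 at 9 months was high for Gm6166 (6.86 CPM), Gm3608 (6.86 CPM) and Gm6356 (3.43 CPM). SAMP8 cortex 3 at 6 months was low for Gm6166 (20.4 CPM) and high for B230217O12Rik (4.58 CPM). SAMP8 cortex 4 at 6 months was high for Gm3608 (14.2 CPM) and Rpl27-ps3 (18.6 CPM). SAMP8 cortex 2 at 6 months (10.4 CPM) and SAMP8 hippocampus 3 at 9 months (4.46 CPM) were low for Gm14326. SAMR1 cortex 4 at 2.5 months (16 CPM) and SAMR1 hippocampus 4 at 6 months (13.8 CPM) were high for Vcp-rs. SAMR1 cortex 2 at 2.5 months was the one library of its group with Gm6356 (0.108 CPM). SAMR1 hippocampus 4 was low for Gm10524 (4.6 CPM) and SAMR1 hippocampus 1 low for AC153155.1 (12.8 CPM), both at 6 months.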

How the results depend on the processing

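Of 318 log2 fold changes of the 10 genes under alternatives other than leaving out 1 library, 316 kept their sign, and of 1230 with 1 library left out, 1226 did. The exceptions were Rpl27-ps3 at 6 months (-0.14 with the replicate block and -0.05 without libraries under 1000000 counts) and Rpl27-ps3 with 1 library left out, which ran from -0.67 to 2.17 at 6 months and from -0.47 to 1.38 in 9-month cortex.

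The 3 genes called at 6 months became 1 at an adjusted p of at most 0.05 without a fold threshold, 5 with DESeq2, 6 with no filter, 6 with voom, 0 without libraries under 1000000 counts, 7 without libraries against their strain label, 5 without those against strain or region label, 8 by the 21 genes and 0 with only libraries of that age, where only 4 of the 10 were tested. All genes called there were 38, and 175 with DESeq2, 311 with no filter and 159 with voom. The 0 called at 9 months became 1, 1 and 4 under the 3 rules on labels. The 1 in 6-month cortex became 3 with DESeq2, 4 with no filter, 5 with voom, 3 without shallow libraries, 5, 2 and 5 under the rules on labels and 0 with only that age. The 3 in 6-month hippocampus became 5 with no filter, 0 with voom and 0 with only that age. The 5 in 9-month cortex became 8 with voom, and the 0 for strain by region at 6 months became 1 with no filter. The cause of these changes was not tested, except that fewer genes were tested with only 1 age. Where the share of all genes called under a setting is not given, its count is not read as particular to the 10.

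With 1 library left out the counts ran from 0 to 7 at 6 months, 0 to 0 at 9 months, 1 to 4 in 6-month cortex, 2 to 5 in 6-month hippocampus, 2 to 6 in 9-month cortex, 1 to 5 in 9-month hippocampus, 0 to 0 and 4 to 8 for strain by region at 6 and 9 months, and 0 to 0 between regions at 2.5 months. Replicate numbers did not pair the samples (17 pairs of same-numbered libraries, median correlation 0.0277, 2 over 0.1). With the replicate block the counts were 2 at 6 months, 0 at 9 months, 1 and 6 in 6- and 9-month cortex, 4 and 4 in hippocampus, and 0 and 7 for strain by region.

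The 8 libraries on the opposite side by the share became 13 at the same limit of 50% when AC153155.1 was left out, and no value could be had without genes that have a near copy, since all 6 SAMP8-side genes have one. On the SAMR1 side Gm10524, B230217O12Rik and Gm10138 also matched other genes, over part of their length or on the other strand. With copy and parent counted as 1 gene, an alternative added after seeing the data like the one by the 21 genes, the sign turned for Fabp5 at 6 months (0.18), Capza1 at 2.5 months (0.02), at 6 months (0.27) and in 9-month hippocampus (0.22), and Vcp in 9-month hippocampus (0.01). Comparisons in 9-month cortex without libraries against their label, and in 6-month hippocampus without shallow libraries, could not be fitted. Depth limits the 6-month hippocampus of SAMP8, where 3 counts over the group are 2.98 CPM.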
